A study of Mus musculus with 2 samples.

Results

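The Bcl2 family of cell death genes was described here in the limb of the mouse embryo through 10 of its members. These were the genes for the pro-survival proteins Bcl2, Bcl2l1 (Bcl-xL) and Mcl1, the pore-forming effectors Bax and Bak1, and the BH3-only proteins Bcl2l11 (Bim), Bbc3 (Puma), Pmaip1 (Noxa), Bmf and Bid. They were taken by gene symbol and not by their values, as the rows whose Ensembl identifier carries 1 of these 10 GENCODE symbols. All 10 were found among the 43346 Ensembl genes of the deposited gene tables.

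The study sequenced total RNA of embryonic mouse limbs (strain B6NCrl) on day 12.5, a stage at which the digits are being laid down. It has 1 group of 2 biological replicates, healthy tissue with no treatment and no altered allele named in the labels. Replicate 1 was a pool of limbs from 88 embryos and replicate 2 a pool from 68, both of mixed sex, and each library began with 10 ng of RNA longer than 200 nt. No second stage, tissue or condition was sampled, so levels were compared between members and between the replicate libraries. Forelimb and hindlimb are not told apart in the labels, nor is the tissue between the digits.

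Proteins of this family decide whether the outer membrane of the mitochondrion stays intact. Bax and Bak1 form the pores through which cytochrome c escapes, the pro-survival proteins hold them in check, and the BH3-only proteins relieve that check or activate the effectors directly after a death signal. In the embryonic limb, regulated cell death is known for removing tissue between the digits, and mice that lack both effectors keep webs of skin there.

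Every member was detected, with at least 1 TPM (a level scaled for gene length and for the size of the library) in both libraries. Levels ran from 172.67 ± 7.71 TPM (SD, n = 2) for Bax to 3.60 ± 1.07 TPM for Bak1, so the effector genes held both ends of the range. Among the pro-survival genes Bcl2l1 was highest, then Mcl1, then Bcl2. Among the BH3-only genes Pmaip1 and Bcl2l11 were highest and were not separated from each other. Of the 10 members, 6 lay above the median of the 12702 detected protein-coding genes in both libraries. In bulk tissue, expression in fewer cells and less RNA per cell cannot be told apart.

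**Figure D1:**
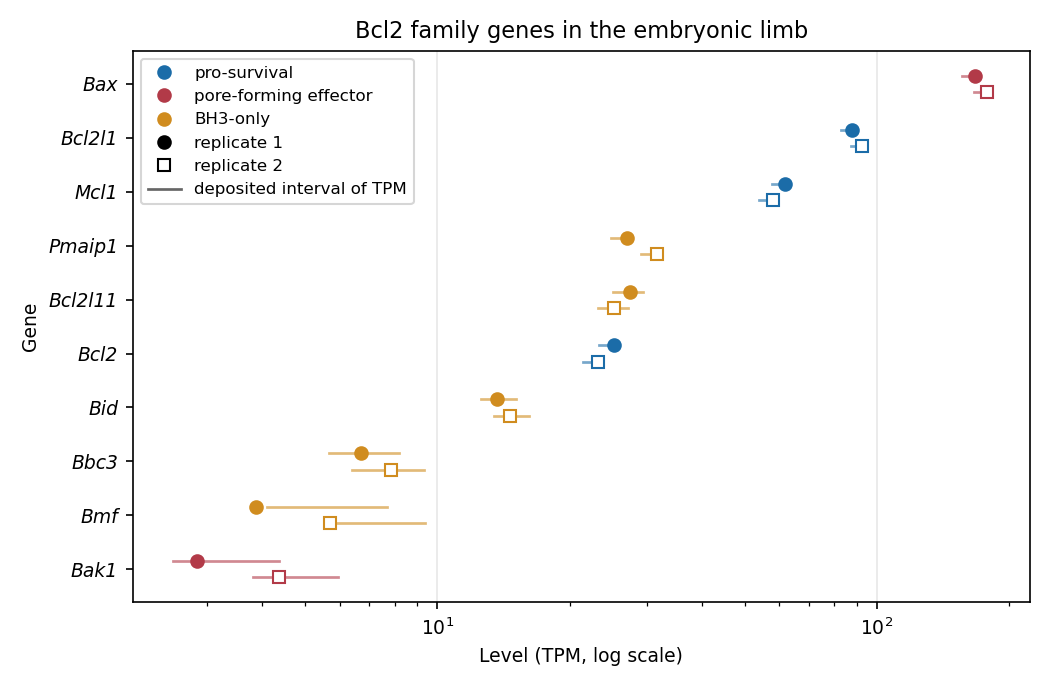
Level of each member in TPM on a log axis, with a filled circle for replicate 1, an open square for replicate 2 and a line for the interval of TPM deposited with the value. Bax stands highest (167.22 and 178.12 TPM) and Bak1 lowest (2.84 and 4.36 TPM), and the Bmf value of replicate 1 (3.88 TPM) lies outside its own interval of 4.11 to 7.69 TPM.

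Sequences that differ between transcripts of Bak1 and Bcl2l11 are shown first, because the transcript with the highest level in each of these 2 genes contains them. Other parts of the transcripts differ as well, so the assignment of reads does not rest on the printed sequences alone. The Bak1 transcript with the higher level in both libraries contains a cassette exon of 20 nt at chr17:27021663-27021682 (GRCm38, minus strand), shown in capitals with 30 bases of the neighbouring exons on each side. The protein-coding transcript joins the same neighbours directly. Sequences are from GENCODE M21 transcripts, 5′ to 3′.
Bak1-201: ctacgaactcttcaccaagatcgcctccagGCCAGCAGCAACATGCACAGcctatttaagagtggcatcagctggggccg
Bak1-202: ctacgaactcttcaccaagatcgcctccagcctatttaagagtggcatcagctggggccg
Inclusion of a short exon of Bak1 is known from neurons. GENCODE M21 gives Bak1-201 a reading frame of 151 codons and types it as a target of nonsense-mediated decay, the pathway that degrades messages with an early stop codon. Bak1-202 has a frame of 209 codons, and the 2 transcripts also differ in their first exon.

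For Bcl2l11, the extra-long form of Bim differs from the long form by a coding stretch of 168 nt, or 56 codons, at chr2:128128757-128128924 (GRCm38, plus strand). The long form differs from the short form by the adjoining 90 nt, or 30 codons, at chr2:128128925-128129014. The 3 forms also differ in where their last exons end, and the extra-long form (Bcl2l11-205) reaches furthest. The assignment of reads between the forms therefore does not rest on the printed stretches alone. Both stretches are shown because the 3 forms differ in them. The extra-long form holds both, and shorter transcripts of the gene hold them too: Bcl2l11-208 contains both stretches and Bcl2l11-202 and Bcl2l11-206 the second.
extra-long form, absent from the long form: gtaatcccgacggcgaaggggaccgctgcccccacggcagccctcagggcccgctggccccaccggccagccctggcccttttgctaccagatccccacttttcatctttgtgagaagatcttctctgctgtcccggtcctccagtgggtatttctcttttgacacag
long form, absent from the short form: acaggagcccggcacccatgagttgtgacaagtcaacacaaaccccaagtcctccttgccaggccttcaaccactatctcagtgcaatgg

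The pro-survival genes came to a summed level of 174.57 TPM in replicate 1 and 173.37 TPM in replicate 2. Bcl2l1, which encodes Bcl-xL on the outer mitochondrial membrane (ENSMUSG00000007659.14, chr2:152780668-152831728, minus strand), was measured at 87.57 and 92.31 TPM. It held 50.2% and 53.2% of the pro-survival sum. Mcl1, whose protein turns over quickly (ENSMUSG00000038612.12, chr3:95658788-95663176, plus strand), stood at 61.79 and 57.87 TPM. Bcl2, the founding member (ENSMUSG00000057329.7, chr1:106538178-106714274, minus strand), was lowest of the 3 at 25.21 and 23.19 TPM. The order of these 3 genes was the same in both libraries, and their ranges did not overlap. Bcl2l1 was 3.47-fold and 3.98-fold above Bcl2 (log2 ratio 1.89 ± 0.14) and 1.42-fold and 1.60-fold above Mcl1 (log2 ratio 0.59 ± 0.12). Without length scaling, the counts of Bcl2l1 and Mcl1 were close, at 3581 against 3765 in replicate 1 and 3717 against 3575 in replicate 2, so their order rests on the length correction.

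The effector sum was nearly all Bax. Bax (ENSMUSG00000003873.10, chr7:45461697-45466898, minus strand), which moves from the cytosol to mitochondria when activated, was at 167.22 and 178.12 TPM and ranked at percentiles 93.0 and 93.3 of detected protein-coding genes. Bak1 (ENSMUSG00000057789.9, chr17:27019810-27029009, minus strand), which resides on mitochondria, was at 2.84 and 4.36 TPM, at percentiles 9.86 and 15.7. Bax was thus 58.9-fold above Bak1 in replicate 1 and 40.9-fold in replicate 2, a log2 ratio of 5.58 ± 0.36. On counts alone, which are not scaled by length, the folds were 23.2 and 16.3. Bak1 rested on 104 and 158.93 expected counts, against 2412 and 2587 for Bax. Gm45808, a protein-coding gene of GENCODE M21 on the same strand, overlaps 915 nt (17.6%) of the Bax locus. It has no level of its own here, and its part in the Bax counts was not tested. The whole of Bak1 lies within Ggnbp1 on the opposite strand (4.01 and 3.87 TPM). Whether the counting used the strand is not known here, so reads of these 2 genes cannot be told apart in full.

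The BH3-only genes spread over a wide range. Pmaip1 (ENSMUSG00000024521.7, chr18:66458533-66465565, plus strand), whose protein binds mainly Mcl1, was at 27.02 and 31.53 TPM. Bcl2l11 (ENSMUSG00000027381.12, chr2:128126038-128162547, plus strand), whose protein binds every pro-survival member, was at 27.43 and 25.20 TPM. These 2 genes changed places between the libraries and were the main part of the BH3-only sum, with 34.3% and 37.1% for Pmaip1 and 34.8% and 29.7% for Bcl2l11. Bid (ENSMUSG00000004446.8, chr6:120891930-120916853, minus strand), which caspase cleavage activates downstream of death receptors, was at 13.71 and 14.67 TPM. Bbc3 (ENSMUSG00000002083.8, chr7:16308393-16318205, plus strand), a target of p53, was at 6.72 and 7.85 TPM. Bmf (ENSMUSG00000040093.11, chr2:118528757-118549687, minus strand) was lowest of the 5, at 3.88 and 5.70 TPM. Pmaip1 stood 4.02-fold above Bbc3 in each library by TPM, and 6.64-fold and 7.39-fold above it on counts without length scaling. By TPM, Bcl2l11 stood 7.07-fold and 4.42-fold above Bmf. The Bmf TPM of replicate 1 lay below its own deposited interval of 4.11 to 7.69 TPM. By the deposited posterior means the mean log2 ratio of Bcl2l11 over Bmf was 1.98, against 2.46 by TPM.

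Ordered by mean TPM, the members were Bax, Bcl2l1, Mcl1, Pmaip1, Bcl2l11, Bcl2, Bid, Bbc3, Bmf and Bak1. Of the 9 pairs of neighbours in this order, 8 kept their order in both libraries. Of these pairs, 3 had ranges that overlapped: Pmaip1 with Bcl2l11 (log2 ratio 0.15 ± 0.24), Bcl2l11 with Bcl2 (0.12 ± 0.00) and Bmf with Bak1 (0.41 ± 0.04). For Bbc3 and Bmf the ranges did not overlap (0.62 ± 0.23) but the deposited intervals did in each library. The largest steps between neighbours were Mcl1 over Pmaip1 (2.04-fold), Bid over Bbc3 (1.95-fold) and Bax over Bcl2l1 (1.92-fold). Without length scaling 4 members kept their rank, Mcl1 moved to the first place and Bax to the third. With 2 libraries an exact two-sided sign-flip test of a ratio cannot give a p below 0.5, so these differences are set only against the spread between the libraries.

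Summed by role, pro-survival and effector genes were close, at 173.97 ± 0.849 and 176.27 ± 8.78 TPM, and the BH3-only genes came to 81.855 ± 4.38 TPM. The pro-survival sum over the effector sum was 1.03 in replicate 1 and 0.95 in replicate 2, so its side of 1 differed between the libraries. Without length scaling the mean ratio was 3.70. The pro-survival sum was 2.22 and 2.04 times the BH3-only sum. Of the summed level of all 10 members, 423.39 and 440.8 TPM, the pro-survival genes held 41.2% and 39.3%, the effectors 40.2% and 41.4% and the BH3-only genes 18.6% and 19.3%. These are sums of RNA levels and do not measure protein.

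The transcript tables gave 43 transcripts for the 10 members, 42 of them with a name in GENCODE M21. For 8 members the transcript with the highest level was annotated as protein-coding, and the exceptions were Bak1 and Bid. Bax-201 (192 codons) and Pmaip1-201 (103 codons) were the only transcripts listed for their genes. Mcl1-201 (331 codons) held 94.9% and 95.8% of Mcl1. Total RNA includes unspliced RNA, and its part in transcripts that run into introns was not tested.

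**Figure D2:**
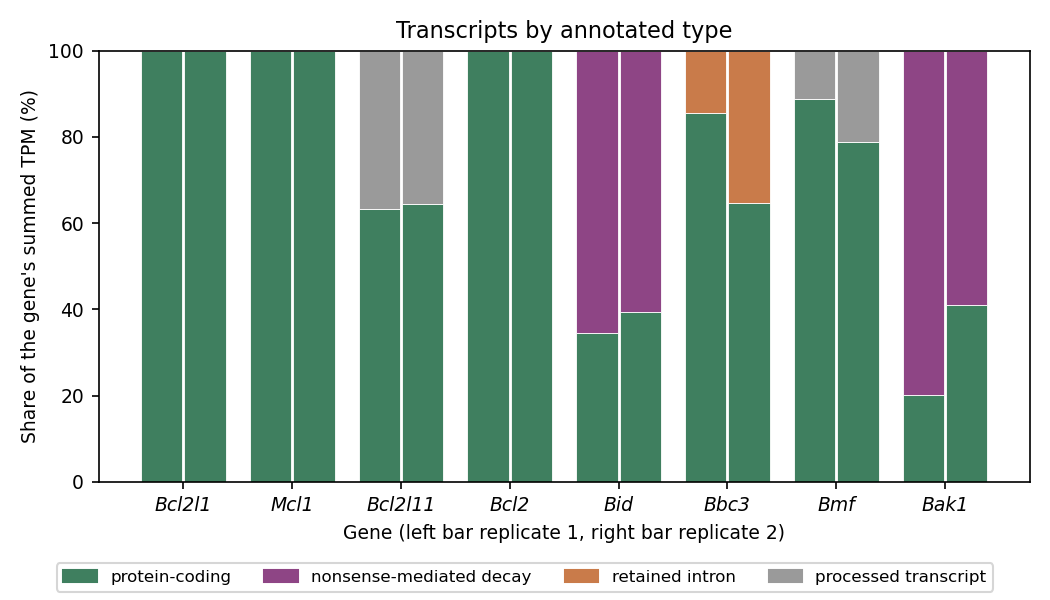
Share of each gene's summed TPM by annotated transcript type, in percent, for the 8 members with more than 1 transcript, with replicate 1 on the left of each pair of bars and replicate 2 on the right. Transcripts of the nonsense-mediated decay type hold most of Bid and Bak1, and protein-coding transcripts hold 20.1% and 41.1% of Bak1.

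Bak1-201, which includes the 20 nt exon printed above, was at 2.26 and 2.57 TPM and held 79.8% and 58.9% of Bak1. Bak1-202, the protein-coding transcript without it, was at 0.57 and 1.55 TPM and held 20.2% and 35.5%. The transcript with the exon was therefore higher in each library. The deposited intervals of Bak1-202 (0.171 to 1.11 and 0.831 to 2.38 TPM) overlapped between the libraries, so the difference in share was not separated from estimation error. In replicate 2 those of the 2 transcripts overlapped with each other as well (1.39 to 3.37 TPM for Bak1-201). With protein-coding transcripts alone, Bax over Bak1 rose from a log2 ratio of 5.58 to 7.26.

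Bid-204 and Bid-201 share a reading frame of 195 codons and differ outside it. Bid-204 starts slightly later in the first exon, has a shorter exon 6 and carries a further exon of 628 nt at chr6:120891930-120892557. Bid-204 is annotated as a nonsense-mediated decay target and was at 8.98 and 8.88 TPM, 65.5% and 60.6% of the gene. Bid-201, the protein-coding type, was at 4.73 and 5.63 TPM. Bid-204 was higher in both libraries, although the deposited intervals overlapped in replicate 2 (6.61 to 10.8 against 3.46 to 7.43 TPM). Its last exon lies inside Bcl2l13, a gene on the opposite strand with 24.26 and 24.57 TPM, and for the same reason reads there cannot be assigned to 1 gene.

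**Figure D3:**
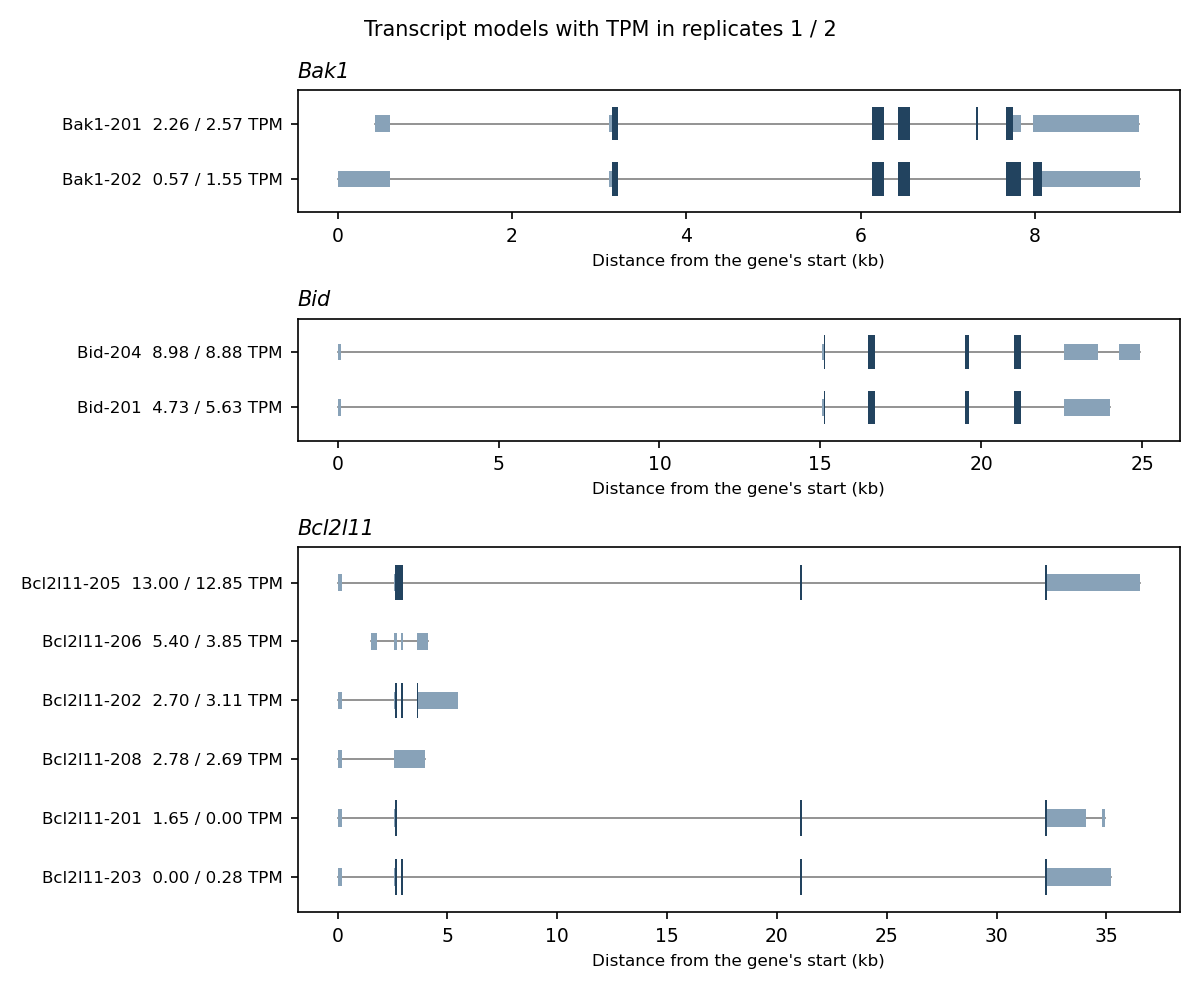
Transcript models of Bak1, Bid and Bcl2l11 by distance in kb from the gene's start, with thick dark boxes for coding exon parts, paler boxes for the rest and the TPM of replicates 1 and 2 beside each name. Bak1-201 has a short exon that Bak1-202 lacks, Bid-204 has a further last exon, and the extra-long Bcl2l11-205 has the highest level among those of Bcl2l11 (13.00 and 12.85 TPM).

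Among the transcripts of the 3 classical forms of Bim, most of the level was assigned to the extra-long one. Its last exon also reaches furthest, and reads over the printed stretches were not counted apart. The levels therefore do not show how often those stretches are included. Bcl2l11-205, which encodes 196 codons and contains both stretches printed above, was at 13.0 and 12.85 TPM and held 47.4% and 51.0% of the gene. Bcl2l11-203, the long form of 140 codons, was listed at 0 and 0.28 TPM. The short form of 110 codons, Bcl2l11-201, was at 1.65 TPM in replicate 1 and listed at 0 in replicate 2. Neither minor form therefore had reads assigned to it in both libraries. Transcripts that end before the last 2 exons of those forms held 39.7% and 38.3%. Among them were the processed transcripts Bcl2l11-206 (19.7% and 15.3%) and Bcl2l11-208 (10.1% and 10.7%) and the coding Bcl2l11-202 of 91 codons (9.85% and 12.3%). On counts, without length scaling, the mean share was 78.4% for Bcl2l11-205, 7.87% for Bcl2l11-202, 5.07% for Bcl2l11-208 and 4.95% for Bcl2l11-206. The shares by TPM therefore depend on the length correction.

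Bcl2 RNA was divided between Bcl2-201, which splices its 2 exons into the full frame of 236 codons, and Bcl2-202, a single exon of 199 codons that reads 1966 nt into the intron (chr1:106710339-106712304). Bcl2-201 was at 15 and 12.67 TPM, 59.5% and 54.6% of the gene. Bcl2-202 was at 10.21 and 10.52 TPM, so the lower Bcl2 level in replicate 2 lay in the spliced transcript. On counts, without length scaling, the mean share of Bcl2-201 was 77.4%.

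Bcl2l1 has 2 main groups of transcripts by first exon. Those from the distal first exon held 59.3% and 53.5% of the gene and those from the proximal first exon 40.7% and 46.2%. Bcl2l1-201 (50.08 and 47.3 TPM) and Bcl2l1-202 (21.5 and 24.17 TPM) both encode the full Bcl-xL frame of 233 codons, and together held 81.7% and 77.4%. Transcripts that end in the intron held 6.54% and 7.74%. The short pro-death form of this gene, Bcl-xS, has no transcript of its own in the annotation used, so its level was not measured.

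The 250 bases before the distal start site of Bcl2l1 are printed because most of the RNA of this gene was assigned to transcripts with the distal first exon. They lie at chr2:152831729-152831978 (GRCm38.p6, minus strand) and come from RefSeq.
Bcl2l1 distal start: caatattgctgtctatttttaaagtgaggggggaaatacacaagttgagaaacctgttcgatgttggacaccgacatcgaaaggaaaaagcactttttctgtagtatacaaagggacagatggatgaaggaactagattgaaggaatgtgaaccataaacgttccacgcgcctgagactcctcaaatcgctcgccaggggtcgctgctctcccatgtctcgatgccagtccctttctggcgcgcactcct
Short motifs, 4 in all, were searched on both strands of such windows, chosen after the sequences had been seen. The E box was searched as CACGTG. The GC box, which zinc finger factors bind, was searched as GGGCGG. For the box of that name the letters were CCAAT. The TATA box of many regulated genes was searched as TATAAA. No match stood in this window. Over 16 start sites of the 9 members with a RefSeq entry, 9 windows held the GC box, 5 the next of these, 2 the E box and 0 the TATA box. Among all 32851 start sites the shares were 32.7%, 33.8%, 6.02% and 12.4%. The median share of G and C bases was 61.0% in the member windows and 52.4% over all start sites. The part of this difference in the GC box matches was not tested. Several of the 16 windows belong to the same gene and some overlap. None of the 4 motifs contains another, and a match describes letters only.

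Among the lower BH3-only genes, Bbc3-201 (193 codons) held 82.6% and 64.6% of Bbc3, and the retained-intron transcript Bbc3-203 held 14.5% and 35.4%. The deposited intervals of Bbc3-203 (0.000349 to 2.51 and 0.754 to 4.41 TPM) overlapped, so this shift was not separated from estimation error. Bmf-201 (271 codons) held 88.9% and 78.7% of Bmf, but 54.9% and 56.8% by the deposited posterior means, so its share depends on the estimate used.

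The replicate libraries were set against each other by an exact binomial test of each gene on TMM-scaled counts, with p-values adjusted over 18580 genes by the Benjamini-Hochberg method. A call needed both an adjusted p under 0.05 and a 2-fold difference. By this rule 0 members were called, where 315 genes in all (1.7%) were called. With no limit on the fold, 4 of the 10 members passed, against 16.1% of all genes tested and 20.0% of genes with at least 100 counts. Before adjustment 6 members had a p under 0.05. The share of all genes at this unadjusted threshold was not computed, so the 6 have no background to be set against. The spread of edgeR's exact test is estimated from the same 2 libraries that it compares. By this test, after adjustment and with no limit on the fold, 0 members passed, against 0.732% of all genes tested. Before adjustment it also gave 0 members with a p under 0.05. The median size of the log2 difference was 0.09 for the members, 0.12 for all genes tested and 0.09 for genes with at least 100 counts. By median size the members thus differed about as much as genes with at least 100 counts, while the share that passed is a description of 10 genes only.

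**Figure D4:**
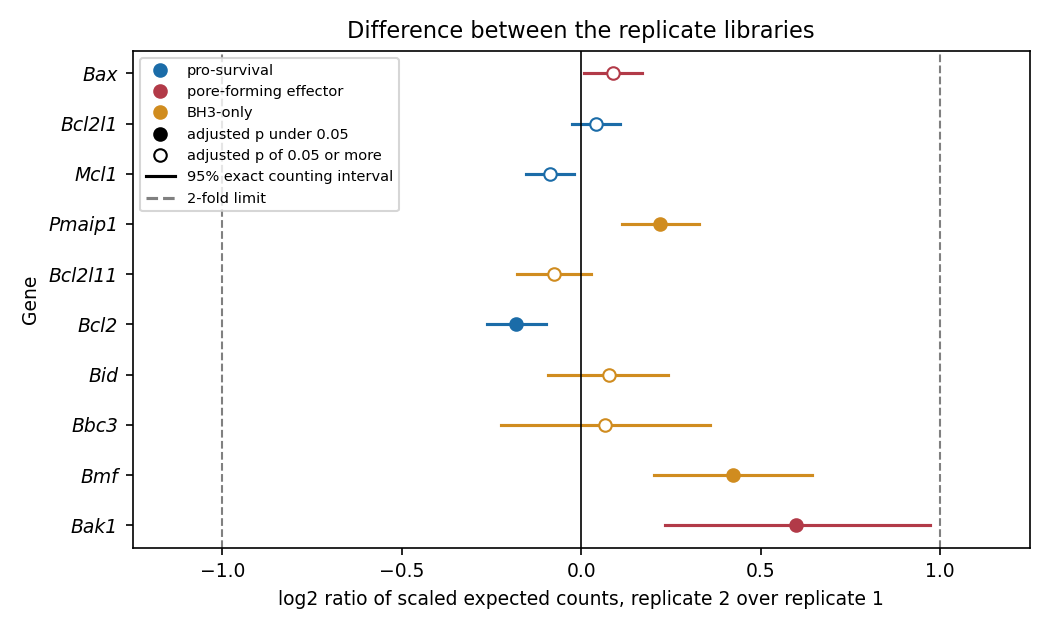
Log2 ratio of scaled counts, replicate 2 over replicate 1, for each member with its 95% exact counting interval, filled where the adjusted p of the exact binomial test is under 0.05 and with dashed lines at the 2-fold limit. Pmaip1, Bmf and Bak1 lie above 0 and Bcl2 below it among the filled points, and no point reaches the dashed lines.

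Of the members that passed without the fold limit, 3 were higher in replicate 2 and 1 was lower, against 7.86% higher and 8.25% lower among all genes. Bak1 had a log2 ratio of 0.60 (95% counting interval 0.23 to 0.97, adjusted p = 0.0104 by the exact binomial test). Ggnbp1, which covers Bak1 on the opposite strand, had 133.88 and 110.61 counts. The part of reads shared with Ggnbp1 in the Bak1 difference was not tested. Bmf, with 296 and 400 counts, had a log2 ratio of 0.42 (0.20 to 0.64, adjusted p = 0.00199 by the same exact test). Pmaip1, with 1289 and 1515 counts, differed by 0.22 (0.11 to 0.33, adjusted p = 0.000891, exact). These 3 genes are BH3-only or effector genes, as most members are, and were higher in replicate 2. The other genes of these 2 roles did not pass, with log2 ratios of -0.08 for Bcl2l11, 0.07 for Bbc3, 0.08 for Bid and 0.09 for Bax. Bcl2, with 2517.14 and 2238.81 counts, was lower by a log2 ratio of -0.18 (-0.26 to -0.10, adjusted p = 0.000309, exact). The intervals cover counting error only, and with 1 group no test could set these 4 differences against a spread measured in other libraries. The deposited TPM intervals of Bak1 (2.51 to 4.38 and 3.81 to 5.95) overlapped between the libraries. Those of Bmf (4.11 to 7.69 and 5.64 to 9.36) and Bcl2 (23.4 to 25.6 and 21.5 to 23.6) did too. The differences of Bak1, Bmf and Bcl2 were therefore not separated from estimation error. For Pmaip1 (24.8 to 27.7 and 29.1 to 32.2) they did not overlap. For the other 6 members the log2 ratio lay between -0.09 (Mcl1) and 0.09 (Bax), with adjusted exact p from 0.0605 to 0.882.

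Markers of some tissues also differed between the libraries. All 9 limb mesenchyme markers were detected, summing to 1030 and 1103 TPM, so the defining genes of the labelled tissue were present. Without the fold limit 5 of them were higher and 1 lower in replicate 2. The forelimb gene Tbx5 was the lower one, at 35.17 and 24.11 TPM, and the hindlimb genes Pitx1 (142.42 and 172.9 TPM) and Tbx4 (32.27 and 37.14 TPM) were higher. All 4 neuron markers were higher in replicate 2, from a sum of 21.2 to 37.6 TPM, with Nefl and Prph called. Of the 4 cartilage markers 3 passed without the fold limit, all lower in replicate 2, with Acan and Matn1 called, and the list summed to 692 and 589 TPM. Markers of the tissue between the digits were all 6 detected and summed to 307 and 288 TPM. Without the fold limit Bmp4 (33.88 and 27.58 TPM) and Aldh1a2 (101.07 and 87.03 TPM) were lower in replicate 2 and Msx2 (52.87 and 60.69 TPM) was higher. By the same rule 2 of 3 ectoderm and 2 of 4 erythroid markers were lower in replicate 2. Muscle, endothelium and liver each had 1 lower marker, and Schwann cell precursors had 1 higher. Among macrophage and leukocyte markers 0 passed. The part of these tissues and of the forelimb and hindlimb genes in the differences of Bak1, Bmf, Pmaip1 and Bcl2 was not tested. The libraries held 29810026 and 29938721 expected counts in all, 3.28% and 2.30% of them outside Ensembl genes, and the biological coefficient of variation over genes was 0.0698.

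The other genes of the pathway were taken from 10 lists drawn up by role. Of 65 genes that are not among the 10 members, 54 were detected and 0 of the 58 tested were called between the libraries. Without the fold limit 10 were higher and 1, Huwe1, was lower in replicate 2, where 7.86% and 8.25% of all genes tested were higher and lower. Of genes with at least 100 counts, 20.0% passed in either direction. Among pro-survival relatives only 4 of 8 genes were detected, which were the 3 members and Bcl2l2 (2.09 TPM, chosen for naming after its value was seen), and Bcl2a1a and Bcl2l10 were listed at 0. Bcl2l12 (76.6 TPM) and Bok, a further pore former (29.5 TPM), stood between Bax and Bak1 in the list of effectors and their relatives, with Bcl2l15 lowest at 0.05 TPM. Bad, a BH3-only protein controlled by phosphorylation, was at 55.2 TPM, above all 5 BH3-only members, and Hrk was lowest at 0.105 TPM. Each of these values is a mean of the 2 libraries.

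Downstream of the pores, all 10 genes of mitochondrial release and the apoptosome were detected, led by the outer membrane channel genes Vdac3 (261 TPM), Vdac2 (212) and Vdac1 (178), with the nuclease gene Endog lowest at 15.1 TPM. Of the caspases 5 of 6 were detected. Among them Casp6 was at 87.4 TPM and Casp2 at 63.4, and Casp12 was lowest at 0.0350 TPM. All 5 inhibitor of apoptosis genes were detected, with Birc5, which also acts in cell division, at 298 TPM, Birc6 at 85.6, Birc2 at 38.5 and Birc3 lowest at 6.11. Bax therefore lay above Casp6 and below Birc5 in mean level.

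Upstream, 6 of 9 death receptor genes were detected. Tnfrsf1a, a receptor for tumour necrosis factor, was at 41.9 TPM, the caspase-8 inhibitor gene Cflar at 26.6 and the adaptor gene Tradd at 13.5, while the ligand gene Fasl was at 0.0150 TPM. All 9 genes of the p53 arm were detected. Trp53 itself was at 148 TPM, close to Bax, followed by the cell cycle inhibitor gene Cdkn1a (55.6) and Perp (53.3), with Zmat3 lowest at 4.72. Genes that control BH3-only and Mcl1 proteins were all 10 detected, led by Dynll1, a dynein light chain (1545 TPM), Atf4, a stress transcription factor (92.0), and Huwe1, a ubiquitin ligase of Mcl1 (57.0), with Trib3 lowest at 2.74. The BH3-like genes of mitophagy and autophagy Bnip3l (351 TPM), Becn1 (106) and Bnip3 (96.05 and 104.02 in the 2 libraries) exceeded every BH3-only member.

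**Figure D5:**
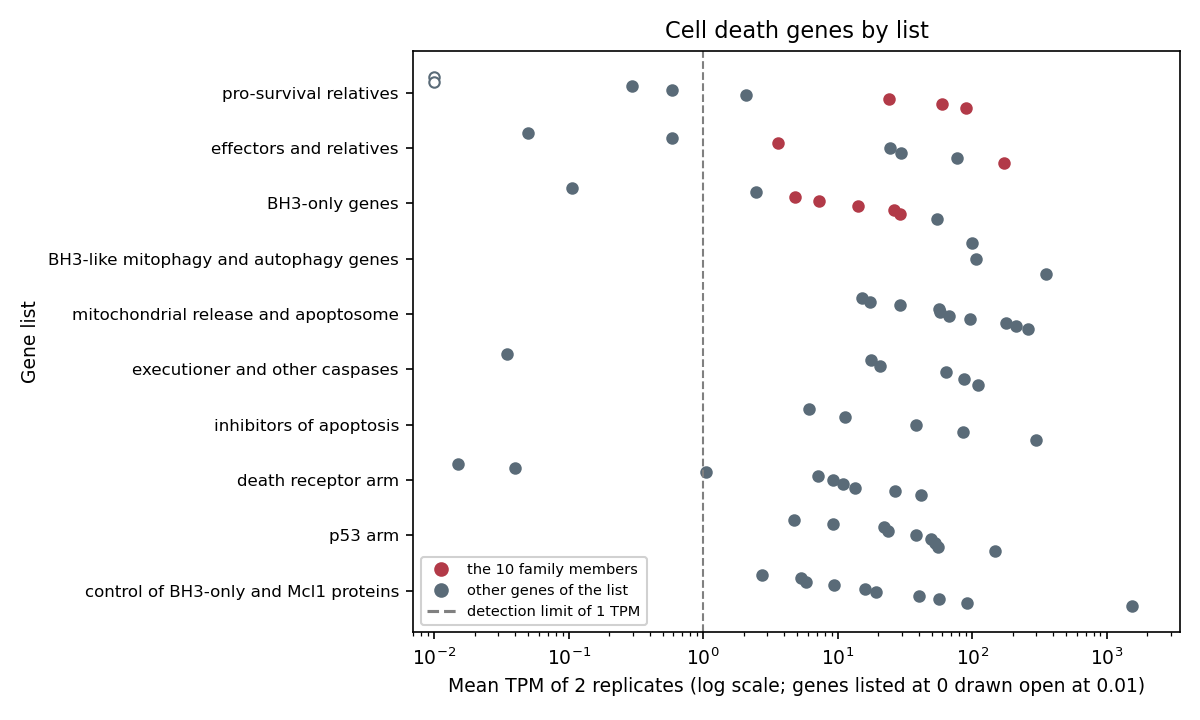
Mean TPM of 2 replicates on a log axis for each gene of the 10 pathway lists, with the 10 members in red, other genes in grey, genes listed at 0 drawn open at 0.01 and the detection limit of 1 TPM dashed. All members lie right of the limit, from Bak1 at 3.60 to Bax at 172.67 TPM, and 54 of the 65 other genes were detected.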

How the data were processed

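Total RNA-seq of 2 replicate libraries was analysed from deposited gene and transcript tables. The deposited expected counts are estimated reads per feature and need not be whole, per the file headers. Rows of every kind, spike-ins included, enter the scaling of the deposited TPM values, with an effective length of the length minus 99 nt. The deposited FPKM values were not used for any result. Bounds of the deposited TPM intervals were taken as signal values from the authors' tables, and their confidence level is unknown here. The deposited percent values give each transcript's share of its gene, per the file headers. Build mm10 and GENCODE M4 are named in text files deposited by the authors. For aligner, quantifier and strandedness, nothing is given in the sources used here. RNA was extracted with the mirVana method and a SMARTer kit manual is linked, per the labels' protocols.

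Names, transcript types and coordinates came from GENCODE M21 (GRCm38) by identifier, matching 42462 of 43346 genes. Counts were rounded and scaled by TMM (edgeR 4.0.16, R 4.3.3). Genes with a sum of at least 10 counts entered the exact binomial test, which covers counting error only. The quasi-likelihood test of edgeR needs 2 groups and was not run. edgeR's exact test compared the 2 libraries with a spread estimated from the same 2 taken as 1 group, so the difference tested enters the spread it is judged against. That spread followed the trend over genes, and a gene-wise spread was added. The coefficient of variation came from edgeR over 16488 genes. Log ratios used a pseudocount of 0.1 TPM. Detection meant at least 1 TPM in both libraries. The 2 libraries differed beyond sampling noise (chi-square 6.64 for each degree of freedom, 16985 genes) and were counted as separate. Of the tests, only the exact binomial test was tried on simulated data, where changed genes carried counting error only. Other tools were matplotlib 3.10.9, pandas 2.3.3, scipy 1.17.1 and numpy 2.4.6 in Python 3.11.15, with DESeq2 1.42.0 for alternative size factors.

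The text names all 10 members, the 3 highest genes and the lowest of each list, genes called between the libraries, and transcripts that are the highest of a member or hold at least 10% of it. Transcripts outside this rule (forms of Bim), genes that overlap members, and markers not called between the libraries were chosen after their values were seen. A gene that this rule takes is not reported here. Members and lists were chosen with earlier results of these data known. Alternatives changed the scaling, filter, unit, pseudocount, fold limit and test, and left out each replicate.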

Additional observations from a re-analysis of the deposited data

How the results depend on the processing

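Without length scaling, the log2 ratio of Bax over Bak1 was 4.25, of Bcl2l1 over Bcl2 0.62, of Pmaip1 over Bbc3 2.79, of Bcl2l1 over Mcl1 -0.00804, of Bax over Bcl2l1 -0.55, of Bcl2l11 over Bcl2 -0.63 and of Bbc3 over Bmf -0.78, the last 4 reversed. The pro-survival sum was then 3.70 times the effector sum, 2.39 times the BH3-only sum and 1.45 times both together. With protein-coding transcripts alone, an alternative chosen after seeing the data, Bax over Bak1 was 7.26, Pmaip1 over Bbc3 was 2.41, Bcl2l11 over Bcl2 reversed to -0.52 and Bid over Bbc3 to -0.0429, and the last 2 role ratios were 2.87 and 0.743. Scaled to Ensembl genes alone, the pro-survival, effector and BH3-only sums were 186, 189 and 87.6 TPM, and posterior means put the pro-survival sum at 170.4 TPM. Between the libraries 315 genes were called, and 73 where at least 100 counts were required. edgeR's exact test called 79, or 136 with no fold limit and 0 with a gene-wise spread, both added after seeing the data. With no fold limit 2993 genes and 4 members were called. No member was called under the other settings. All 10 members were detected at 0.5 TPM and 8 at 5 TPM. Where not stated, the cause of a change was not tested. With 2 libraries, leaving out 1 gives the value of the other, so it is no check of stability. No paired analysis was possible because the series has 1 group. Counts were fewest for Bak1, Bbc3 and Bmf (104 to 400 a library), so counting error was widest there.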
